A study of Mus musculus with 4 samples.

Results

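A set of 6 genes known to be spliced differently as muscle forms, Bin1, Capzb, Fxr1, Ktn1, Pdlim7 and Pkm, were followed through the transcripts listed for them. They were taken by gene symbol and are 6 of 13824 listed symbols, with 23 of 36231 listed transcripts. The 4 RNA-seq libraries came from C2C12, a clonal mouse myoblast line that fuses into myotubes when serum is lowered. Every library is from cells given 30 nM siRNA with Lipofectamine and then held 48 h in differentiation medium (2% horse serum). The 2 control libraries had a scrambled siRNA (scrambled), and the 2 knockdown libraries an siRNA to Mef2a (siMEF2A), which encodes a transcription factor of muscle differentiation. The labels do not name separate cultures. The p-values below cover the spread between these libraries, pooled in part over all features tested, and this spread could be technical only.

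Alternative splicing lets one gene make several proteins by keeping or skipping exons. During myogenesis, many exons change toward the forms found in mature muscle, often with little change in the total RNA of the gene. RNA-binding proteins such as those of the MBNL, CELF, RBFOX and PTBP families promote or repress such exons. Among the genes described here, Pkm makes pyruvate kinase with either an M1 or an M2 exon, Capzb makes a sarcomeric and a general beta subunit of the actin-capping protein, and Fxr1 makes a form of an RNA-binding protein with exons used in striated muscle. Pdlim7 makes Enigma, a PDZ and LIM domain protein of the Z-disc and actin cytoskeleton, Bin1 makes a membrane-bending protein of T-tubules, and Ktn1 makes kinectin, a membrane protein that binds the motor kinesin.

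The main alternative coding stretches of Pkm, Capzb, Fxr1 and Pdlim7 are given here, since the shares below are of transcripts that carry one or the other. They were read from the GENCODE M21 transcript sequences (GRCm38, the assembly of mm10) and are written 5′ to 3′ on the strand of the gene. On this build the genes span chr9:59656368-59679375 (Pkm), chr4:139192899-139291818 (Capzb), chr3:34019943-34070322 (Fxr1), chr13:55495795-55513676 (Pdlim7) and chr14:47648448-47739894 (Ktn1, plus strand). The alternative exons of Pkm follow one another on chromosome 9, plus strand, at chr9:59675029-59675195 in Pkm-202 (M1) and chr9:59675568-59675734 in Pkm-201 (M2). Both are coding and 167 bases long, and Pkm-201 also reaches further at both ends of the transcript. The alternative exons are identical at 103 positions (61.7%), the 64 differing bases being in capitals.
Pkm-202, M1 exon: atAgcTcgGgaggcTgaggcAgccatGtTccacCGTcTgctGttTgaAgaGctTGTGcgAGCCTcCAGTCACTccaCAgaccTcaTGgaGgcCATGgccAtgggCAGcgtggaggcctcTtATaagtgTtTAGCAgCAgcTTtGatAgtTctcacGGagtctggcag
Pkm-201, M2 exon: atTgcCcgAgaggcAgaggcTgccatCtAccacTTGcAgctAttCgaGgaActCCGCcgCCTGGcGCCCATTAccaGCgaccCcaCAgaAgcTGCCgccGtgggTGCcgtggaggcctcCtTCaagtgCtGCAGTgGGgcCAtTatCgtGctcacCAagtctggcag
The Capzb forms on chromosome 4, plus strand, differ in their last coding stretch. Capzb-203 carries an exon of 113 bases, of which 100 are coding (chr4:139288861-139288960), and Capzb-204 skips it and ends in the next exon with 85 coding bases (chr4:139291003-139291087). The open reading frames have 277 codons in Capzb-203 and 272 in Capzb-204, the lengths of the beta 1 and beta 2 subunits.
Capzb-203, beta 1 end: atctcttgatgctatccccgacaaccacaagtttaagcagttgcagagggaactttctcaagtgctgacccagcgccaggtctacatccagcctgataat
Capzb-204, beta 2 end: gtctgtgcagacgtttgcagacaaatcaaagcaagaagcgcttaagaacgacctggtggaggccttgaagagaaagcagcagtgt
Fxr1-201, on chromosome 3, plus strand, carries coding exons of 81 bases (chr3:34064974-34065054) and 92 bases (chr3:34068161-34068252) that Fxr1-202 skips. The first of these is the exon known from striated muscle.
Fxr1-201, 81-base exon: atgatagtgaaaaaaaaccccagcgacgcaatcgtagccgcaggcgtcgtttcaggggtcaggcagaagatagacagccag
Fxr1-201, 92-base exon: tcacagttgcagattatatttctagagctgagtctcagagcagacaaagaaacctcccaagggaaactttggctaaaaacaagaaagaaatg
Pdlim7 lies on chromosome 13, minus strand. Pdlim7-201 runs through to the distal exons and has 457 codons, while Pdlim7-202 and Pdlim7-203 stop earlier in a last exon that Pdlim7-201 lacks and have 188 and 222 codons. The coding part of that exon in Pdlim7-203 is 94 bases (chr13:55507030-55507123).
Pdlim7-203, short end: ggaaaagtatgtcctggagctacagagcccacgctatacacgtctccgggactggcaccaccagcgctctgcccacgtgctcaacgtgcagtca

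**Figure D1:**
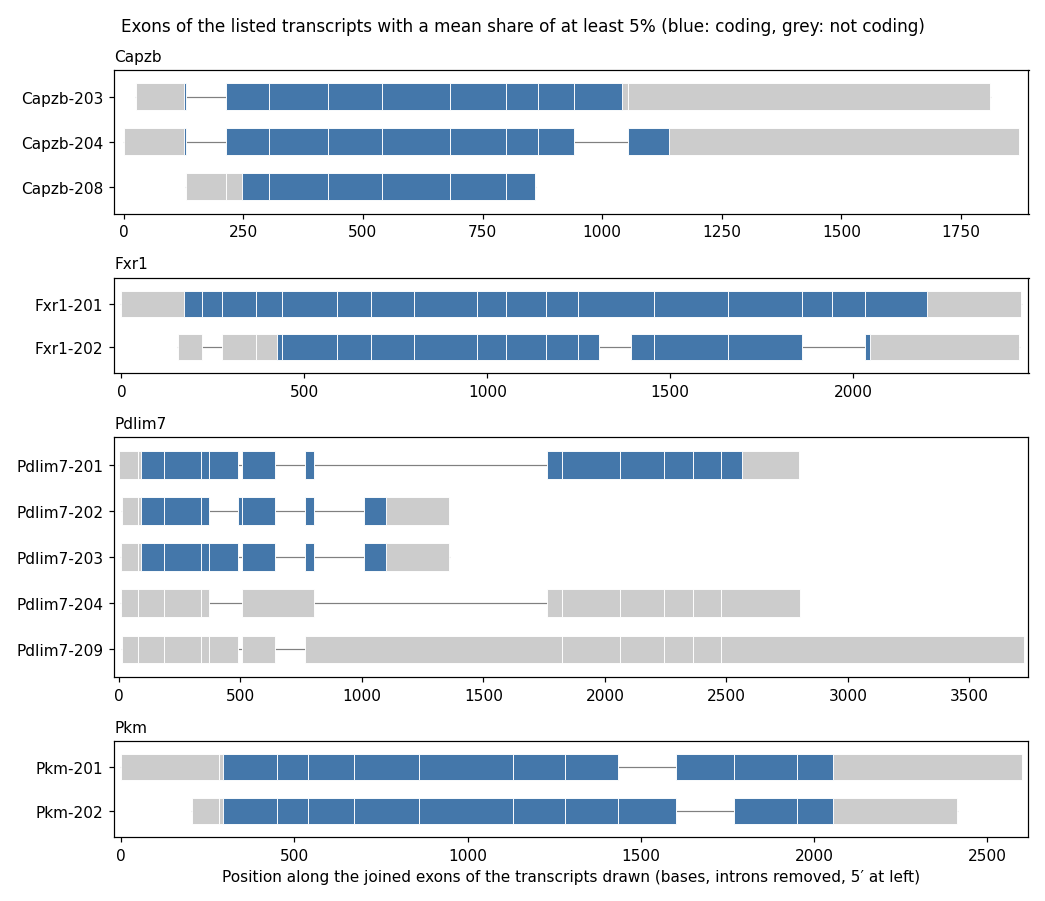
Exons of the listed transcripts with a mean share of at least 5% of their gene, drawn to scale along the joined exons in bases with introns removed and the 5′ end at the left. Blue is coding and grey is not coding; the forms of Pkm carry different alternative exons of equal length and also differ in how far their end exons reach, Capzb-203 has 1 exon more than Capzb-204, and Pdlim7-202 and Pdlim7-203 lack the distal exons of Pdlim7-201.

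Each value was an FPKM (fragments per kilobase, relative to the library's total) deposited for a transcript and library. A transcript's share is its FPKM as a percentage of the summed FPKM of all listed transcripts of its gene in that library, so that neither the level of the gene nor scaling between libraries enters it. The sequencing depth is unknown, so no counting interval is given. The knockdown was present, with Mef2a at 25.8 and 32.2 FPKM in the controls and 12.7 and 14.3 after knockdown (limma adjusted p = 2.32e-05). Of the markers of muscle differentiation 14 were tested, with 12 that fell and 0 that rose, and Acta1 was not listed. Their summed level was 2038 to 2160 FPKM in the controls and 953 to 972 FPKM in siMEF2A, and the part of this difference in the shares below was not tested. Defining markers of endothelium, neurons and epithelium were not listed, and the 3 listed markers of immune cells, adipocytes and cardiomyocytes summed to at most 2.30 FPKM per cell type. In these bulk libraries, fewer differentiated cells and less RNA per cell cannot be told apart.

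Summed over transcripts, 0 of the 6 genes passed the limma test on log2(FPKM + 1), where 1.74% of 11821 genes did (0.406% higher and 1.34% lower in siMEF2A). In 4 of them the groups overlapped, Ktn1 among them. Pkm was at 451 and 594 FPKM in the controls and 501 and 575 after knockdown (log2 difference 0.05, SE 0.21). Capzb was at 209 and 247 FPKM in the controls and 239 and 246 after knockdown (log2 difference 0.09, SE 0.18). Fxr1 was at 64.8 and 77.5 against 69.0 and 76.3 FPKM (log2 difference 0.03, SE 0.16). The order of level was thus Pkm, then Capzb, then Fxr1. In each of these genes the single scrambled replicates were further apart than the group means, which average 2 libraries each.

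The other 2 genes did not overlap and were lower in siMEF2A. Pdlim7 was at 102 and 93.6 FPKM in the controls and 68.4 and 68.9 after knockdown, 70.3% of the scrambled mean (log2 difference -0.50, SE 0.16, limma adjusted p = 0.157, unadjusted p = 0.00393). It passed only with the replicate number as a block (limma adjusted p = 0.00937, range over its 12 alternatives 0.00937 to 0.817), and equal replicate numbers are not labelled as pairs. The file headers also number the scrambled libraries otherwise than the titles, so the numbers behind this block are doubtful. Bin1 was at 103 and 124 FPKM in the controls and 83.8 and 97.2 after knockdown, 80.0% of scrambled (log2 difference -0.32, SE 0.17, limma adjusted p = 0.931). Groups that do not overlap were seen in 2 of these 6 genes and in 28% of all genes tested (18.8% higher and 9.12% lower in siMEF2A).

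Transcript by transcript, 20 of the 23 had a mean of at least 1 FPKM and were tested, and 0 passed, where limma called 0.225% of 23598 transcripts (0.0297% higher and 0.195% lower). Of the 20, 12 were lower and 2 higher in siMEF2A without overlap, against 12% and 17.4% of all transcripts tested (29.4% together). Transcripts of one gene share reads and are not independent of each other. The plot of FPKM by library shows the main ones.

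**Figure D2:**
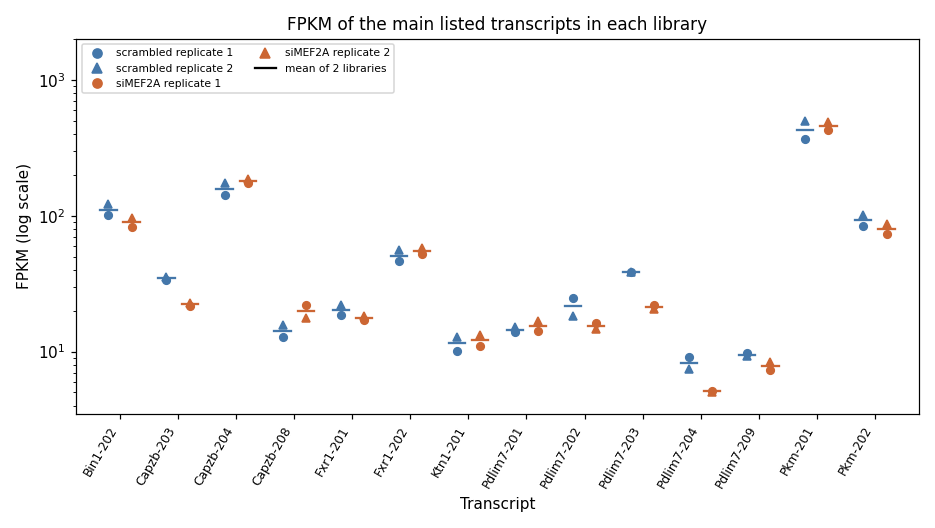
FPKM (log axis) of the main listed transcripts in each library, with circles for replicate 1, triangles for replicate 2 and a bar at the mean of the 2 libraries of a group. Capzb-203 and Pdlim7-203 have both siMEF2A values well below both scrambled values, while Pkm-201, Fxr1-202 and Ktn1-201 overlap.

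Shares of transcripts were compared by limma on a log ratio of the share, over 19136 transcripts of 6307 genes with a mean share between 5% and 95%. The test called 0 transcripts (0%) at an adjusted p under 0.05, and 968 had an unadjusted p under 0.05. The diffSplice test of limma, run as an alternative on the same transcripts, called 15, none of them from the genes described here. Of the 12 transcripts of Capzb, Fxr1, Pdlim7 and Pkm that entered the test, 6 were higher and 5 lower in siMEF2A without overlap, where 16.7% of all transcripts were higher and 16.7% lower without overlap (33.5% together). Shares of one gene are parts of one total, and with 2 listed transcripts they mirror each other, so these counts are not of independent items. The genes were also chosen with earlier results of these data known, so the counts are not independent support. With 2 libraries against 2, an exact permutation test of a single share cannot go below p = 0.333, two-sided.

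The sarcomeric form of Capzb had the smallest p of these transcripts. Capzb-203, the beta 1 form that caps actin filaments at the Z-disc, was at 33.7 and 35.4 FPKM in the controls and 21.8 and 22.8 after knockdown, 64.5% of the scrambled mean (log2 difference -0.61, SE 0.15, limma adjusted p = 0.30). Its share of Capzb was 16.1% and 14.3% in scrambled and 9.13% and 9.29% in siMEF2A, a mean of 15.2% ± 1.27 against 9.21% ± 0.110 (SD, n = 2 each). Both siMEF2A shares lay below both scrambled shares, by 6.02 percentage points in the mean. The difference did not pass over all transcripts (log ratio -0.76, SE 0.11, limma adjusted p = 0.441, unadjusted p = 0.00120, rank 52 of 19136 by p). With no trend in limma the unadjusted p was 0.0200 and the adjusted p 0.939. Without one library at a time the log ratio ran from -0.86 to -0.67. Its sign could not change there, since the groups do not overlap.

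Capzb-204, the beta 2 form of most tissues, took the main part of the gene. It was at 143 and 174 FPKM in the controls and 175 and 187 after knockdown, and its share was 68.2% and 70.4% against 73.5% and 75.9% (difference 5.37 percentage points, limma adjusted p = 0.971). The ratio of beta 1 to beta 2 was 0.236 and 0.203 in scrambled and 0.124 and 0.122 in siMEF2A, a comparison within each library. Capzb-208, an incomplete coding model that ends before the alternative exon, had 6.11% and 6.30% against 9.16% and 7.17%. The other 4 listed Capzb transcripts each had a mean share under 5% and summed to 7.60% to 9.52% of the gene. They include Capzb-201, the beta 3 form, which differs at the start of the protein and was at 10.3 and 12.5 FPKM in the controls and 10.1 and 8.12 after knockdown.

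Counted over every listed transcript that spans it, the 113-base Capzb exon was included at 17.7% and 15.6% in scrambled and 10.3% and 10.2% in siMEF2A (difference of -6.41 percentage points, limma adjusted p = 0.472, unadjusted p = 0.00126). The same test over 4880 alternative exons called 0 (0%), with 268 at an unadjusted p under 0.05, and in 36.7% of them the groups did not overlap (20.1% higher and 16.6% lower). The exon value and the share of Capzb-203 rest on the same transcripts.

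In Pkm the muscle form had a lower share after knockdown, a difference that did not pass. Pkm-202, with the M1 exon of adult muscle, was at 84.0 and 101 FPKM in the controls and 73.7 and 86.5 after knockdown, which overlap. Pkm-201, with the M2 exon of proliferating cells, was at 367 and 494 against 427 and 489 FPKM. The share of the M1 form was 18.6% and 17.0% in scrambled and 14.7% and 15.0% in siMEF2A, so that M2 made up 81.4% to 85.3% of Pkm in every library. The mean M1 share was 17.8% ± 1.19 against 14.9% ± 0.218 (SD, n = 2 each), lower by 2.92 percentage points without overlap (log ratio -0.29, SE 0.09, limma adjusted p = 0.971, unadjusted p = 0.0241). In the exon test the M1 exon had a limma adjusted p of 0.805. The Pkm values are uncertain, because 7 processed pseudogenes matched Pkm transcripts at 90% identity or more over at least 200 bases, the closest, Gm6560, at 98.4% over 1593 bases. GENCODE also places a same-strand gene, Gm49759, over both alternative exons.

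The shares of Fxr1 lay close together within each group. Fxr1-201, which carries the striated-muscle exon, was at 18.6 and 21.9 FPKM in the controls and 17.0 and 18.3 after knockdown. Its share was 28.7% and 28.2% in scrambled and 24.6% and 24.0% in siMEF2A, a mean of 28.5% ± 0.341 against 24.3% ± 0.427 (SD, n = 2 each). The groups did not overlap, and the difference of -4.14 percentage points did not pass (log ratio -0.30, SE 0.14, limma adjusted p = 0.971, unadjusted p = 0.0806). Fxr1-202, which skips both printed exons, was at 46.2 and 55.6 against 52.0 and 57.9 FPKM. It also skips a 53-base exon and part of another exon of Fxr1-201, so the share cannot be assigned to the 81-base exon alone. For each of the 3 exons the inclusion equals this share, and the exon test did not call them (limma adjusted p = 0.833). Of 6 coding Fxr1 transcripts in GENCODE, 2 were listed. A processed pseudogene, Gm17795, matched Fxr1 at 93.6% over 761 bases, and Dnajc19 on the opposite strand shares 178 exon bases with it, outside the printed exons.

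**Figure D3:**
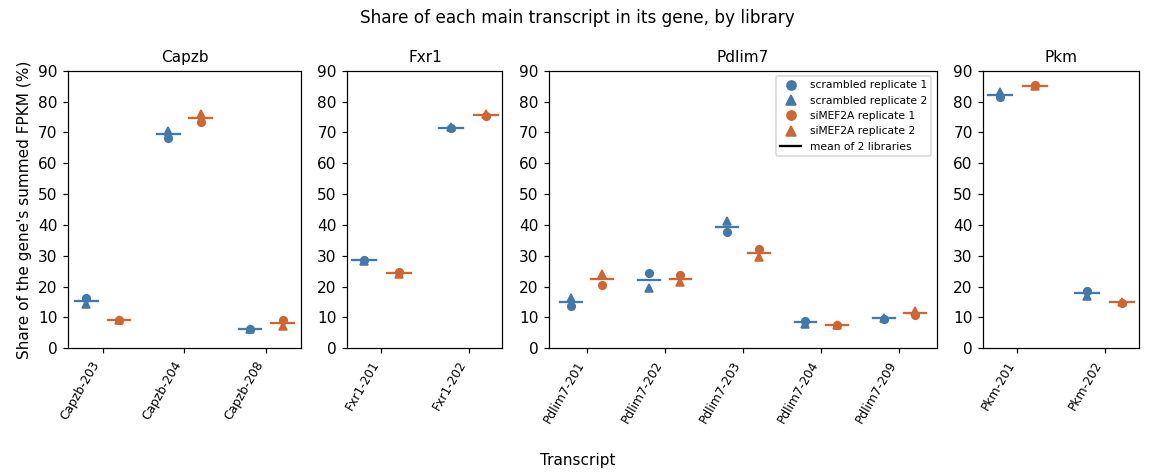
Share of each main transcript in the summed FPKM of its gene (percent), with circles for replicate 1, triangles for replicate 2 and a bar at the group mean. Capzb-203, Fxr1-201, Pkm-202 and Pdlim7-203 lie lower in both siMEF2A libraries, and Pdlim7-201 lies higher, while Pdlim7-202 overlaps.

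In Pdlim7 the short form Pdlim7-203 had the largest share difference in percentage points, and the long form Pdlim7-201 the largest log ratio. Pdlim7-203, which ends before the exons that encode the LIM domains, was at 38.2 and 38.5 FPKM in the controls and 22.1 and 20.5 after knockdown, 55.5% of the scrambled mean (log2 difference -0.82, SE 0.15, limma adjusted p = 0.116, unadjusted p = 0.000498). It passed in 1 of 11 alternatives, when only transcripts with a mean of at least 5 FPKM were tested (limma adjusted p = 0.00482, range 0.00482 to 0.331). Pdlim7-202, another short coding form, was at 24.9 and 18.3 FPKM in the controls and 16.2 and 14.7 after knockdown. The long form Pdlim7-201 was at 13.8 and 15.1 against 14.1 and 16.7 FPKM, which overlap (log2 difference 0.08, SE 0.16).

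The composition of Pdlim7 differed accordingly. Pdlim7-203 made up 37.6% and 41.2% of the gene in scrambled and 32.3% and 29.7% in siMEF2A (difference of -8.38 percentage points, log ratio -0.52, SE 0.16, limma adjusted p = 0.971, unadjusted p = 0.0218). The long form made up 13.6% and 16.2% in scrambled and 20.5% and 24.2% in siMEF2A (difference of 7.47 percentage points, log ratio 0.69, SE 0.18, limma adjusted p = 0.971, unadjusted p = 0.0140). The ratio of Pdlim7-201 to Pdlim7-203 was 0.362 and 0.393 in scrambled and 0.636 and 0.813 in siMEF2A. Pdlim7-202 held 24.5% and 19.5% against 23.6% and 21.4%, which overlap. Of the retained-intron forms without a coding frame, Pdlim7-204 held 8.94% and 7.98% against 7.50% and 7.36%, and Pdlim7-209 held 9.62% and 9.88% against 10.7% and 12.1%.

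Forms with at least 4 exons were grouped by their 3′ end, a grouping made after the values were seen and not tested. It leaves out Pdlim7-210, a coding form of 58 codons. The 3 coding forms in it that stop early were Pdlim7-202, Pdlim7-203 and Pdlim7-206. They summed to 66.3 and 59.97 FPKM in the controls and 40.3 and 37.7 after knockdown. The 3 listed forms with the distal exons were the coding form Pdlim7-201 and the retained-intron forms Pdlim7-204 and Pdlim7-209. Together these summed to 32.7 and 31.9 FPKM in the controls and 26.5 and 30.1 after knockdown. The early forms with the retained-intron Pdlim7-205 added summed to 68.2 and 61.5 FPKM in the controls and 41.0 and 38.5 after knockdown. Among the forms with the distal exons, the coding Pdlim7-201 overlapped between the groups. The retained-intron forms Pdlim7-204 and Pdlim7-209 were lower in siMEF2A without overlap. Most of the difference in the gene total lay in the forms that stop early. The 2 alternative exons further upstream overlapped between the groups. The 119-base exon that Pdlim7-202 skips was included at 65.2% and 71.5% in scrambled and 67.5% and 70.0% in siMEF2A, and the 17-base exon that it adds at 27.4% and 22.0% against 25.8% and 23.5%. The remaining 4 Pdlim7 transcripts each had a mean share under 5% and summed to 5.25% to 5.70%.

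Bin1 and Ktn1 gave little to compare. Of 6 GENCODE transcripts of Bin1 (chromosome 18, plus strand), 2 were listed. Bin1-202, which codes for 477 residues, held 98.1% in both scrambled libraries and 98.7% and 98.5% in siMEF2A. Bin1-201, the 588-residue form with 4 additional exons known from brain, was at 1.96 and 2.30 FPKM in the controls and 1.11 and 1.49 after knockdown (log2 difference -0.45, SE 0.20, limma adjusted p = 0.890). Its share was under 5% and was not tested. The small exon that muscle adds to Bin1 is not among those 4 exons and was not analysed here. The 2 listed forms differ in no other internal exon, so their shares cannot show its use. The start of Bin1-202 is shared with a lincRNA gene on the opposite strand, A830052D11Rik, over 246 bases, and no use of strand in counting is given in the labels.

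Ktn1 was listed with 1 of its 26 GENCODE transcripts, so it has no share. Ktn1-201 was at 10.1 and 12.9 FPKM in the controls and 11.1 and 13.1 after knockdown (log2 difference 0.07, SE 0.18). The groups overlap. The listed form holds exons of 69, 87, 72, 84 and 110 bases that other coding Ktn1 transcripts skip, and their use was not analysed here.

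Across all tested transcripts, the median absolute difference in share was 2.17 percentage points between the group means, 3.20 between the scrambled replicates and 2.83 between the siMEF2A replicates. The first compares means of 2 libraries and the others single libraries, which spread more even where groups do not differ. The 12 transcripts described here had a median absolute difference of 3.53 points between the groups. The plot of share differences against gene level sets them among all transcripts. Median share differences by transcript length were larger between single libraries of a group than between the group means, which are again unlike measures. The longest listed transcript of a gene had a median share difference of 0.384 points between scrambled 2 and 1 and of 0.450 points between siMEF2A 2 and 1, against 0.0363 points between siMEF2A and scrambled.

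**Figure D4:**
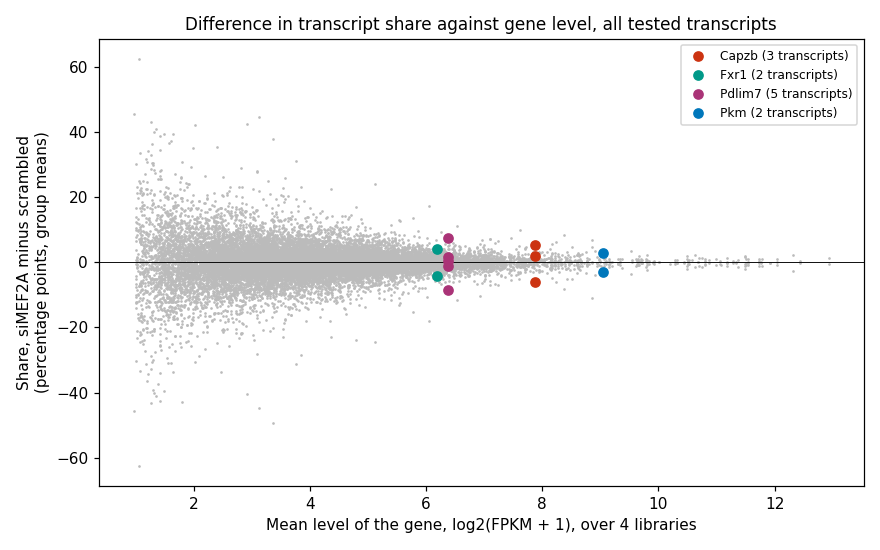
Difference in transcript share, siMEF2A minus scrambled in percentage points of the group means, against the mean level of the gene as log2(FPKM + 1), for 19136 transcripts in grey and the 12 of Capzb, Fxr1, Pdlim7 and Pkm in colour. Pdlim7-203 (-8.38 points) and Capzb-203 (-6.02 points) are the lowest of the coloured transcripts and Pdlim7-201 (7.47 points) the highest.

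Genes of splicing regulators were read at the gene level. Of 49 in the list, Rbm24, Rbfox1, Rbfox3, Celf4, Celf6, Nova1 and Nova2 were not tested. The 42 that were tested had 0 higher and 0 lower in limma, where 1.74% of all genes were called. An unadjusted p under 0.05 was seen in 3 of them, and in 6.37% of all genes, with a median log2 difference of 0.0514 against 0.0449 over all genes. Rbm38, an RNA-binding protein that promotes myogenic differentiation, was at 5.07 and 7.23 FPKM in the controls and 3.13 and 4.73 after knockdown (log2 difference -0.54, limma adjusted p = 0.118). Mbnl1 and Mbnl3, of the muscleblind family that promotes or holds back muscle forms, were at 128% and 139% of scrambled (limma adjusted p = 0.601 and 0.536). Ptbp3, a relative of the polypyrimidine tract-binding protein that represses the M1 exon of Pkm, was at 118% with overlapping groups (limma adjusted p = 1.0). Ptbp1, which encodes that protein itself, was at 48.3 and 52.2 FPKM in the controls and 47.3 and 54.3 after knockdown, which overlap.

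Other genes with isoforms regulated in muscle were read the same way. Of 80 such genes 71 were tested at the gene level, and 13 fell and 0 rose, where 1.34% of all genes tested fell and 0.406% rose. Their median log2 difference was 0.0319. The siRNA target Mef2a is one of the 13 that fell. The others were Tnnt1, Tnnt2, Tnnt3, Ttn, Neb, Cacna1s, Atp2a1, Ldb3, Smyd1, Pdlim3, Sorbs2 and Camk2a. Mbnl1, Mbnl2 and Rbfox2 are in this list and in that of the splicing regulators. Tnnt1 is also among the markers of muscle differentiation that fell, so the lists are not separate. In the share test, 0 of their 205 transcripts in 61 genes passed, 23 had an unadjusted p under 0.05 (5.06% of all transcripts tested did), and the median absolute share difference was 2.26 percentage points against 2.17 over all transcripts tested.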

How the data were processed

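RNA of 4 libraries (2 scrambled, 2 siMEF2A) was measured as FPKM of each Ensembl transcript, deposited by the authors, 1 column per library per the file headers. CASAVA, Trimmomatic, TopHat, Bowtie, Cufflinks and build mm10 are named in the submitters' processing notes, without versions or settings. Which annotation was used and how transcripts were selected is not given in the sources used here. The depth is unknown. The members and gene lists were chosen with earlier results of these data known.

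Exons, types and sequences came from GENCODE M21, in which all 23 transcripts were found by identifier. Symbols of 29 small RNAs were left out. The comparison of the groups used limma 3.58.1 (R 4.3.3, eBayes with a trend, two-sided, 2 residual degrees of freedom), with Benjamini-Hochberg adjustment over all features tested and a threshold of 0.05. The fit weighed each feature's own spread against the spread of all features, counted as prior degrees of freedom. The median of these was 31.3 for genes, 6.25 for transcripts, 2.80 for shares and 2.33 for exons. Levels of genes and transcripts with a mean of at least 1 FPKM were tested as log2(FPKM + 1), which understates changes of low values. Shares and exon inclusion (spanning transcripts that hold the exon with the same ends over these plus those with no overlapping exon) were tested as log2((s + 0.01)/(1 - s + 0.01)), with s a fraction, for genes or exons with at least 1 FPKM and a mean between 5% and 95%. Each test was run on data simulated from its own fitted model, which cannot show how it does where that model is wrong. The outcome of these simulations is not given here. Transcripts with a mean share of at least 5% were described by library, with the 4 splicing regulators of smallest p and Ptbp1. Copies were searched with minimap2 2.31. Estimates split reads between overlapping transcripts of a gene, and how reads matching several genes were treated is not stated. Pseudocounts, filters, scaling, trend, the replicate block, diffSplice, protein-coding transcripts alone and leaving out each library were tried as alternatives.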

Additional observations from a re-analysis of the deposited data

How the results depend on the processing

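The 40 values of member genes, transcripts and exons were recomputed 494 times. Of these, 469 kept their direction and side of the threshold, 2 passed that had not (Pdlim7 with the replicate block and Pdlim7-203 at a minimum of 5 FPKM) and 23 changed sign, all of values that did not pass. Filters, the trend setting and the replicate block left the estimates unchanged, so no sign could change under them. Shares and exons of one gene also repeat or mirror each other, so these counts are not of independent checks. None of the 268 recomputed shares and inclusions passed. With no trend in limma, the unadjusted p of shares rose to 0.2155 for Pkm-202, 0.193 for Fxr1-201 and 0.146 for Capzb-204. It was 0.0723 for Pdlim7-203 and 0.0456 for Pdlim7-201. Median-ratio scaling gave log2 differences of -0.020 for Fxr1 and -0.0026 for Pkm. The Pdlim7-202 share was at -0.13 with diffSplice, the 17-base Pdlim7 exon at -0.018 percentage points on a linear scale, and the 119-base exon at -0.061 with protein-coding transcripts alone.

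Without one library at a time, log2 differences of gene levels ran from -0.029 to 0.21 for Capzb, -0.094 to 0.16 for Fxr1, -0.087 to 0.23 for Ktn1 and -0.15 to 0.25 for Pkm. Those of transcripts ran from -0.018 to 0.24 for Fxr1-202, -0.087 to 0.23 for Ktn1-201, -0.11 to 0.32 for Pkm-201 and -0.039 to 0.19 for Pdlim7-201. The log ratio ran from -0.15 to 0.25 for the Pdlim7-202 share, from -0.20 to 0.21 for the 17-base and from -0.18 to 0.23 for the 119-base Pdlim7 exon. A group left with 1 library was assumed to vary like the other.

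Over all genes limma called 206 (48 higher, 158 lower), 133 at a minimum of 5 FPKM and 118 under quantile normalization (11 higher, 107 lower). Median-ratio scaling gave 14 higher and 138 lower. Without one library it called 174 to 223. Over all transcripts it called 53, which became 0 without a filter on low values, 132 at a minimum of 5 FPKM and 67 to 239 without one library (93 without scrambled replicate 2, 227 without siMEF2A replicate 1 and 239 without siMEF2A replicate 2). In the share test, 1 transcript, of no member gene, passed with a constant of 0.001 and 1 at a minimum of 5 FPKM, and diffSplice called 15.

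With the replicate block, 512 genes and 0 transcripts were called at the level test. The cause of these moves was not tested. Deviations of same-numbered libraries from their group means correlated at 0.288 over genes and 0.0405 over shares, the labels do not say that numbers pair libraries, and the headers number the scrambled libraries otherwise than the titles. The unknown depth and 2 libraries a group limit all shares.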
